A study of Sus scrofa with 63 samples.

Results

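The genes described here are the proteasome subunit genes and the ubiquitin-conjugating enzyme genes of pig skin that was exposed to sulfur mustard. They were chosen by name, as every gene of the array's annotation whose symbol begins with PSMA to PSMG or with UBE2, except the mitotic gene UBE2C, which was left out. A probe set counted only when it was annotated to 1 symbol, and a gene with several was represented by its brightest, by mean signal on the 63 arrays. This gave 63 of the 6765 genes with a single symbol, 40 of them proteasome genes and 23 UBE2 genes. None of the 63 lay below the 25th percentile of mean signal (6.44 on the log2 scale), so no member was lost to low signal.

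Female Yorkshire crossbred pigs received 400 microliters of undiluted sulfur mustard, a chemical warfare agent that alkylates and crosslinks DNA, on 3 cm sites of the ventral skin for 8 min. The exposed groups held skin from these sites, taken as 8 mm punch biopsies at 1, 2, 4, 24, 48, 72, 168, 336 and 514 h. Control groups held skin from unexposed sites of the exposed animals, so they shared the animal, the hair removal and the handling. Sham groups held skin of separate pigs that were prepared in the same way but received no agent. At each time there were 3 exposed arrays, 3 control arrays and 1 sham array. The labels give neither the animals' ages nor the animal behind each array, and the 3 last times appear in the design text as 7, 14 and 21 d. RNA was measured on Affymetrix porcine arrays as log2 signal per probe set, where a difference of 1 is a factor of 2 and each change below is exposed minus control. A member was called higher or lower where limma's moderated test, adjusted over all 23999 probe sets tested, gave an adjusted p under 0.05. The p-values treat the arrays as independent samples, although exposed and control sites came from the same animals.

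The proteasome is the large protease that degrades proteins marked with ubiquitin chains. Its 20S core is a barrel of alpha and beta rings with the active sites inside, and the 19S cap unfolds and feeds in substrates with a ring of ATPases and a set of non-ATPase subunits. Interferon exchanges the catalytic beta subunits for inducible ones and raises the PSME1 and PSME2 activator, which shapes the peptides that cells present on MHC class I. Ubiquitin reaches its targets through an activating enzyme (E1), a conjugating enzyme (E2, the UBE2 genes) and a ligase (E3). In cells with damaged proteins or an inhibited proteasome, many subunit genes are known to be raised together.

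Arrays have no read depth, and their number limits the precision here: within a group, 2 arrays differed with an SD of 0.231 to 0.583 across probe sets. The epidermal keratins KRT1 and KRT10, which define the labelled tissue, had mean signals of 13.52 and 13.65 over all arrays. The biopsies also held skeletal muscle in varying amounts: the mean signal of 18 muscle genes ran from 7.15 to 13.57 over the control arrays. In the histology scores of the labels all 3 exposed sites at 24 h had 4 for epidermal and 4 for dermal necrosis, and all 3 controls had 0.

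At 24 h after exposure 43 of the 63 genes were higher in exposed skin and 2 were lower, against 14.4% of all probe sets higher and 12.7% lower. Among the 5192 genes with 1 symbol that were at least as bright as the dimmest member, 28.8% were higher. The proteasome genes moved together, since 32 of 40 were higher, none was lower and all 40 changes were above 0, with a median of 0.64. UBE2 genes moved less evenly: 11 of 23 were higher and 2 lower, with a median of 0.23. The mean signal of the 40 proteasome genes was 11.37, 11.27 and 11.42 on the 3 exposed arrays and 10.7, 10.78 and 10.66 on the 3 controls, with 10.73 on the sham array. So every exposed array lay above every control, and the sham array lay among the controls.

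In 48 of the 63 genes all 3 exposed arrays lay above all 3 controls at 24 h, and in 2 all lay below, where 19.9% and 20.6% of all probe sets did so. Leaving out any single array of that time left 40 to 44 genes called. The arrays of 24 h were transcribed and labelled on 2 dates. The median change of all 63 members was 0.485 on the date with 1 exposed and 1 control array. It was 0.539 on the date with 2 and 2. These are bulk samples, in which fewer cells of a type and less RNA per cell cannot be told apart. Other cell types moved at the same time. Muscle genes averaged 7.1 to 8.79 in exposed and 10.16 to 11.52 in control skin, with 2 of 18 lower, and 7 of 8 keratinocyte genes were lower with a median change of −1.07. Leukocyte genes averaged 9.29 to 9.53 in exposed and 8.47 to 8.6 in control skin, and 7 of 11 were higher. With the muscle score as a covariate 42 of the 43 genes stayed higher, and the part of leukocytes and keratinocytes was not tested.

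**Figure D1:**
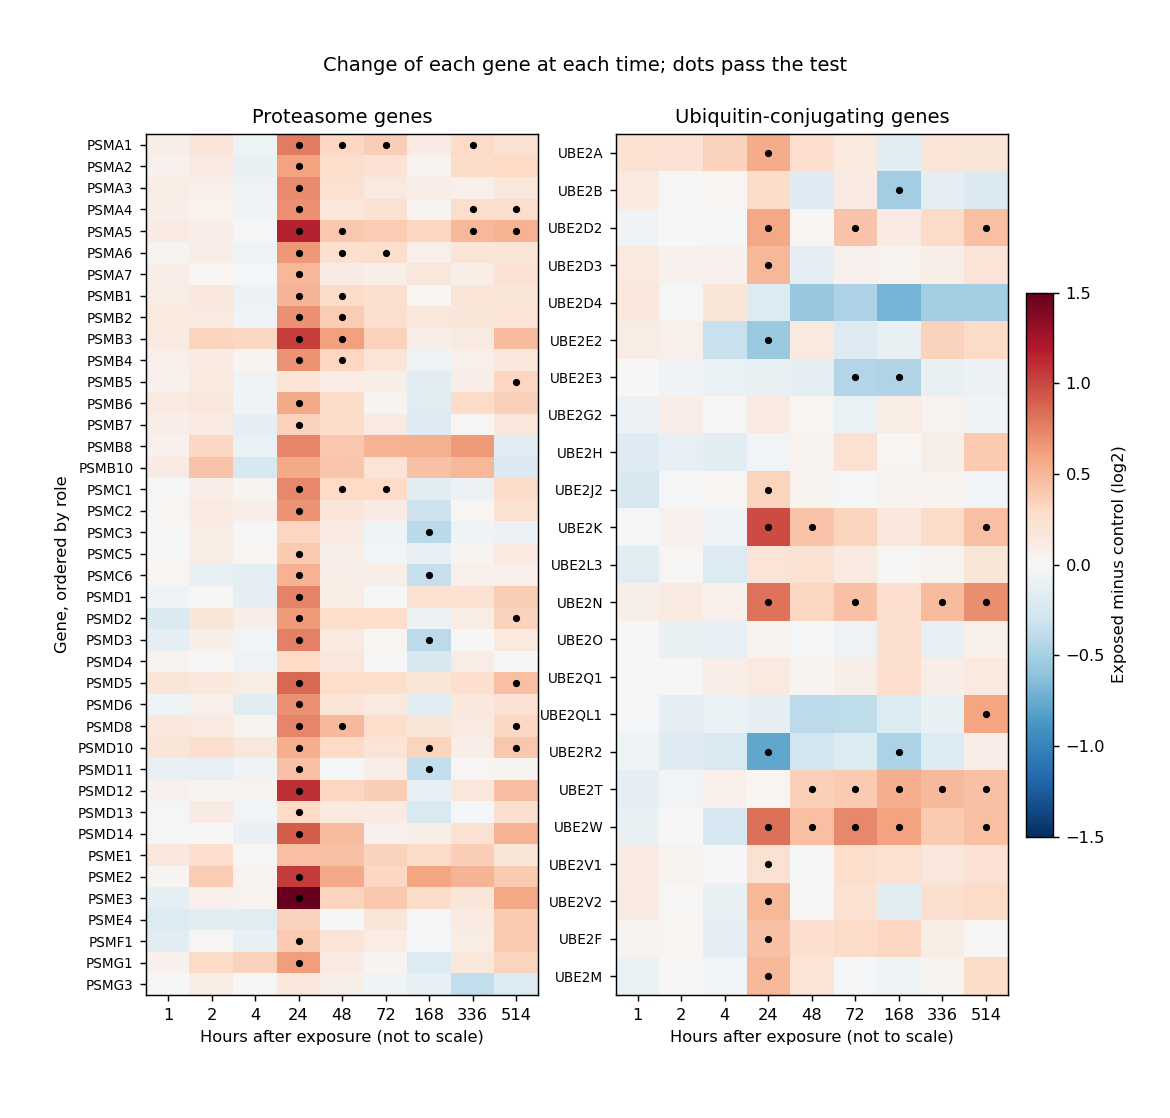
Exposed minus control (log2, colour, 3 arrays against 3) for 40 proteasome genes (left) and 23 UBE2 genes (right) at 9 times after exposure, in order of role; black dots mark genes past the test. The column of 24 h holds 43 higher and 2 lower genes, while the first 3 columns hold no dot.

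All 7 alpha subunits of the 20S core were higher at 24 h, by 0.50 to 1.16. PSMA5 rose most: its signals were 11.39, 11.31 and 11.19 in exposed skin and 10.11, 10.26 and 10.04 in control skin. The groups did not overlap, and the change was 1.16 ± 0.13 (SE, n = 3 arrays a group), a 2.23-fold difference with an adjusted p of 4.83e-09. PSMA1 followed with 11.71, 11.51 and 11.77 against 10.91, 10.97 and 10.78, a change of 0.78 ± 0.08 (adjusted p 2.25e-09). The alpha ring forms the gate of the core, and the smallest change in it was PSMA7's 0.50 ± 0.10.

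Of the 7 constitutive beta subunits 6 were higher at 24 h. PSMB3, a beta subunit without catalytic activity, rose from 9.66, 9.84 and 9.63 to 10.75, 10.62 and 10.89, a change of 1.04 ± 0.16 (adjusted p 2.26e-06). Of the 3 catalytic beta subunits, PSMB6, the caspase-like site, changed by 0.57 ± 0.13 and PSMB7, the trypsin-like site, by 0.34 ± 0.10, both called. The third, PSMB5, which carries the chymotrypsin-like site, read 12.16, 12.18 and 12.16 in exposed and 12, 12.01 and 11.88 in control skin. Its groups did not overlap, but the change of 0.20 ± 0.09 did not pass (adjusted p 0.1), the one such case among the 14 constitutive core genes.

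The inducible beta subunits PSMB8, which replaces PSMB5, and PSMB10, which replaces PSMB7, had larger errors than the constitutive subunits. PSMB9, which is also inducible, was not among the 63 genes. At 24 h PSMB8 read 10.18, 10.28 and 10.53 in exposed skin, 9.47, 9.81 and 9.51 in control skin and 9.13 in the sham animal. The change of 0.73 ± 0.35 was as large as that of many called subunits and did not pass (adjusted p 0.119). PSMB10 changed by 0.57 ± 0.32 (adjusted p 0.194), from 8.79, 8.71 and 8.52 to 9.13, 9.26 and 9.35. At both genes the 3 exposed arrays lay above the controls. PSMB8 passed over the 9 exposed and 9 control arrays of 24 to 72 h (0.55 ± 0.20, adjusted p 0.0283), a call lost under 6 other settings, with adjusted p from 0.0551 to 0.0905. PSMB10 did not pass there (0.40 ± 0.18, adjusted p 0.0893), but did with the replicate number as a block (adjusted p 0.0106). In the gene order of the Sscrofa11.1 assembly PSMB8 lies between TAP2 and TAP1, the peptide transporter genes, and TAP1 rose by 1.51 ± 0.36 at 24 h (adjusted p 0.00115).

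In the 19S cap 15 of 17 measured genes were higher at 24 h. PSMC4, PSMD7 and PSMD9 were not among the 63 genes. Among 5 ATPases 4 were called, led by PSMC1 (0.72 ± 0.095, adjusted p 2.25e-07), which read 12.13, 12.06 and 12.32 in exposed and 11.38, 11.56 and 11.43 in control skin. PSMC3 changed by 0.32 ± 0.13 and missed the threshold (adjusted p 0.0607). Of 12 non-ATPase genes 11 were called, with a median change of 0.71. PSMD12, a lid subunit, rose from 9.57, 9.66 and 9.61 to 10.85, 10.54 and 10.74, a change of 1.10 ± 0.17 or 2.14-fold (adjusted p 4.94e-06). PSMD14, the deubiquitinase that removes ubiquitin chains as substrates enter, rose by 0.91 ± 0.18, with 10.98, 11.05 and 10.92 against 10.18, 10.19 and 9.85. PSMD5, a chaperone of cap assembly, rose by 0.87 ± 0.11. PSMD4, a ubiquitin receptor of the cap, was the exception at 0.30 ± 0.16 (adjusted p 0.176).

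The largest change of all 63 genes was that of PSME3, the subunit of a nuclear activator that opens the core without ubiquitin or ATP. Its signals were 10.09, 9.39 and 10.15 in exposed skin and 8.26, 8.68 and 8.21 in control skin, with 8.6 in the sham animal. Exposed replicate 2 was the lowest of its group and still lay above every control. The change was 1.49 ± 0.24, a 2.81-fold difference (adjusted p 4.07e-06). PSME2 rose by 1.05 ± 0.28 (adjusted p 0.00388), from 10.57, 10.83 and 10.53 to 11.59, 11.73 and 11.75. Its partner PSME1 changed by 0.45 ± 0.29 and PSME4, the subunit of a further nuclear activator, by 0.34 ± 0.15, neither past the test (adjusted p 0.283 and 0.0814). Over 24 to 72 h PSME1 changed by 0.41 ± 0.17 (adjusted p 0.0521), and it passed with the replicate block (adjusted p 0.0022).

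PSMF1, an inhibitor of the core in vitro, was higher by 0.39 ± 0.14 at 24 h (adjusted p 0.0329), with overlapping groups. The call was lost with the muscle score as a covariate (0.35, adjusted p 0.0713), and a dimmer PSMF1 probe set was not called (0.19, adjusted p 0.176). PSMG1, a chaperone of core assembly, rose by 0.63 ± 0.15 (adjusted p 0.00096), and PSMG3, another such chaperone, changed by 0.15 ± 0.14 (adjusted p 0.471).

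**Figure D2:**
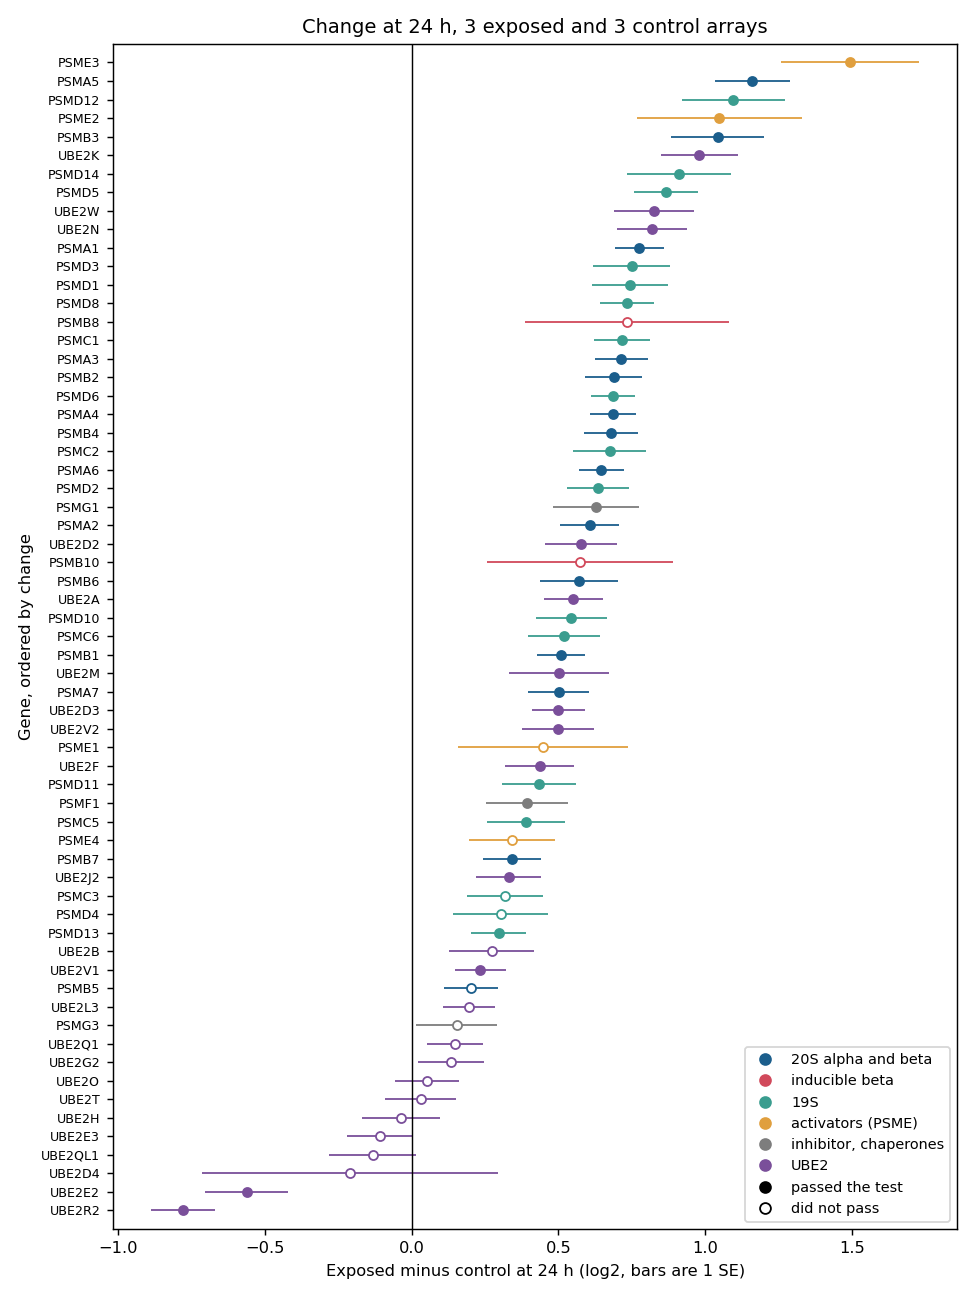
Exposed minus control at 24 h (log2, x axis) for each of the 63 genes, ordered by change; points are estimates from 3 exposed and 3 control arrays, bars are 1 SE, colours give the role and filled points passed the test. All 40 proteasome genes lie right of 0, from 0.15 (PSMG3) to 1.49 (PSME3), and the 2 filled points left of 0 are UBE2E2 and UBE2R2.

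Among the conjugating enzymes UBE2K, which builds the chain type that marks proteins for the proteasome, rose most at 24 h. It read 10.11, 9.87 and 10.14 in exposed skin and 9.19, 9.09 and 8.92 in control skin, a change of 0.98 ± 0.13 (1.97-fold, adjusted p 2.58e-07). UBE2W, which attaches ubiquitin to the amino terminus of proteins, rose by 0.83 ± 0.14 (adjusted p 9.75e-06), from 7.01, 7.4 and 6.76 to 7.91, 7.71 and 8.01. UBE2N, which builds signaling chains with the UBE2V1 and UBE2V2 cofactors, rose by 0.82 ± 0.12 (adjusted p 1.28e-06), with 11.4, 11.24 and 11.36 against 10.55, 10.64 and 10.35. Both cofactors were called with smaller changes, UBE2V2 at 0.50 ± 0.12 and UBE2V1 at 0.23 ± 0.09. Also higher were UBE2A, a RAD6 homologue that acts in the bypass of DNA lesions (0.55 ± 0.10), the broadly acting UBE2D2 and UBE2D3 (0.58 ± 0.12 and 0.50 ± 0.09) and UBE2J2, which serves degradation at the endoplasmic reticulum (0.33 ± 0.11). UBE2F and UBE2M, which conjugate the ubiquitin-like NEDD8 to cullin ligases, rose by 0.44 ± 0.12 and 0.50 ± 0.17.

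The 2 genes that fell at 24 h were both conjugating enzymes. UBE2R2, a partner of the cullin ligases, read 8.74, 8.97 and 8.53 in exposed skin and 9.54, 9.43 and 9.61 in control skin, a change of −0.78 ± 0.11 (0.584-fold, adjusted p 5.81e-07). UBE2E2 read 8.81, 8.81 and 8.76 against 9.24, 9.29 and 9.54, a change of −0.56 ± 0.14 (adjusted p 0.00193). In both genes every exposed array lay below every control and below the sham array, which read 9.26 for UBE2R2 and 9.33 for UBE2E2. UBE2B, the other RAD6 homologue, changed by 0.27 ± 0.14 and did not pass (adjusted p 0.17).

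At 1 h no member was called, where 0.413% of probe sets were higher and 0.788% lower (1.2% in all). The same held at 2 h (0.338% and 0.0542%, 0.392% in all) and at 4 h (1.11% and 0.342%, 1.45% in all). At an unadjusted p under 0.05 limma gave 3, 4 and 6 of the 63 members at the 3 times. Of the 23999 probe sets it gave 2590, 1193 and 2226. All exposed arrays lay above the controls in 2, 5 and 1 members (5.4%, 4.57% and 5.52% of probe sets) and below in 5, 2 and 3 (7.89%, 5.02% and 7.03%). Over the 9 exposed and 9 control arrays of 1 to 4 h a single gene passed, where 2.07% of probe sets were higher and 3.41% lower (5.48% in all). This was UBE2A, whose signals ran from 10.1 over a median of 10.47 to 10.69 in exposed skin and from 9.58 over 10.11 to 10.46 in control skin. The ranges overlapped and the change was 0.26 ± 0.06 (adjusted p 0.00299), with 0.23, 0.22 and 0.34 at the 3 times. Without exposed replicate 1 of 2 h or control replicate 1 of 4 h, 3 members passed, and without exposed replicate 2 of 1 h, control replicate 1 of 2 h or exposed replicate 2 of 4 h, 2 passed.

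The response then narrowed. At 48 h 12 genes were higher and none lower (5.84% and 4.11% of probe sets). Of the 5192 genes with 1 symbol at least as bright as the dimmest member, 13% were higher and 3.37% lower. Of the 12 higher members 11 had been higher at 24 h. Among them were 7 of the 14 constitutive core genes and 2 of the 17 cap genes. PSMB3 read 9.9, 9.96 and 10.34 in exposed and 9.5, 9.28 and 9.56 in control skin, a change of 0.62 ± 0.16 (adjusted p 0.00836). PSMD8, a lid subunit, changed by 0.49 ± 0.09 (adjusted p 0.000307), with 11.91, 11.78 and 12.05 against 11.67, 11.25 and 11.35. In 25 genes the exposed arrays all exceeded the controls and in 2 they were all below (13.5% and 11.1% of probe sets). The count rested on few arrays: without exposed replicate 3 it was 1, without control replicate 2 it was 3 and without exposed replicate 1 it was 6. At the same time 6 of 11 leukocyte genes were higher (mean signal 9.24 to 9.37 against 8.24 to 8.72) and 6 of 8 keratinocyte genes lower (median change −1.45), and their part was not tested.

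At 72 h 7 genes were higher and 1 lower (5.4% and 4.25% of probe sets). UBE2W led with 8.24, 8.05 and 8.44 against 7.53, 7.48 and 7.55, a change of 0.72 ± 0.14 (adjusted p 0.000361), and its groups did not overlap. UBE2N rose by 0.44 ± 0.12 and UBE2D2 by 0.42 ± 0.12, while UBE2E3 fell by 0.44 on the log2 scale (adjusted p 0.00706). Other settings lost the call for UBE2D2 in 5 cases (adjusted p 0.0722 to 0.48) and for UBE2N in 4 (0.0723 to 0.102). For UBE2E3 it was lost in 3 (0.0573 to 0.203). Of the proteasome genes PSMA1, PSMA6 and PSMC1 were called. These 3 and UBE2W were the 4 genes higher at 24, 48 and 72 h alike. The members' share of calls in either direction, 8 of 63, was close to the 9.65% of all probe sets. The count was 3 without control replicate 2, 4 without exposed replicate 1 and 4 without exposed replicate 3, and 13 with the replicate number as a block. Of the markers, 7 of 11 leukocyte genes were higher (9.8 to 10.3 against 8.93 to 9.29) and 6 of 8 keratinocyte genes lower (median change −1.99), and their part was not tested. The muscle score was 10.59 to 11.53 in exposed and 11.66 to 13.15 in control skin, and with it as a covariate 14 members were called.

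**Figure D3:**
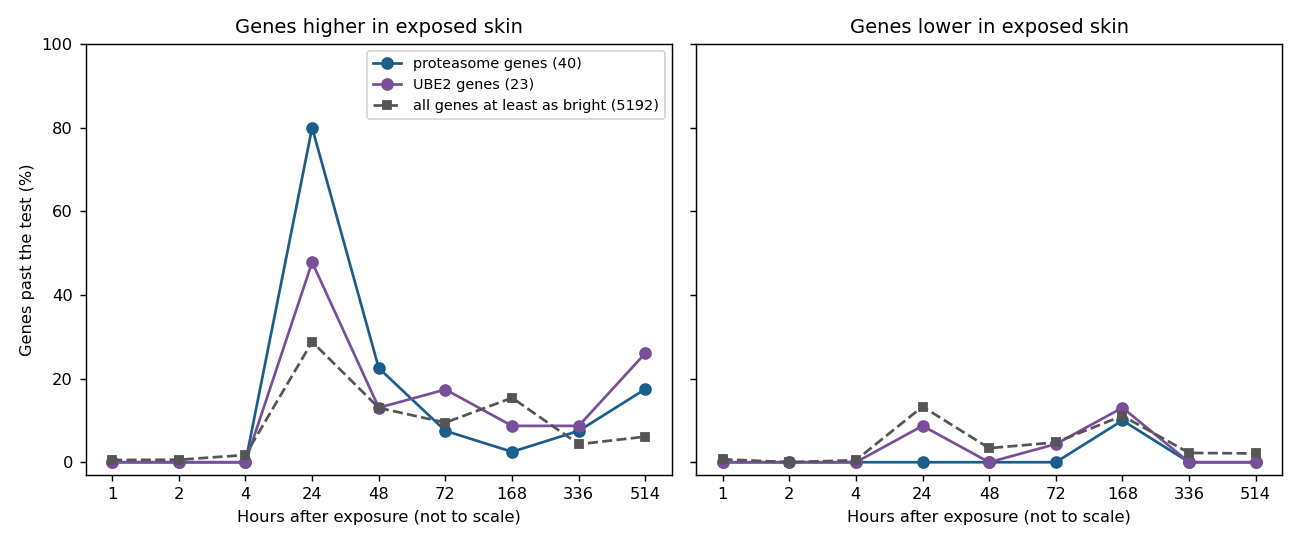
Share of genes past the test (%, y axis) that were higher (left) or lower (right) in exposed skin at 9 times, for 40 proteasome genes, 23 UBE2 genes and the 5192 genes with 1 symbol at least as bright as the dimmest of them. The proteasome genes peak at 24 h with 32 of 40 higher, and lie below the comparison genes at 72 h with 3 of 40 (9.48% of the comparison genes) and at 168 h with 1 of 40 (15.4%).

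At 168 h the pattern differed from the earlier times, with 3 genes higher and 7 lower (9.87% and 8.06% of probe sets, 17.9% in all). Members were thus called higher no more often than other probe sets. Among the 5192 genes with 1 symbol at least as bright as the dimmest member, 15.4% were higher and 11.1% lower. The share of members called lower was near the latter. Of the 17 cap genes 4 were lower: the ATPases PSMC3 and PSMC6 and the lid subunits PSMD3 and PSMD11. PSMC3 read 11.09, 11.14 and 11.52 in exposed and 11.63, 11.59 and 11.77 in control skin, a change of −0.41 ± 0.13 (adjusted p 0.0203). PSMD3 read 9.49, 9.73 and 9.98 against 10, 10.22 and 10.17, a change of −0.39 ± 0.13 (adjusted p 0.0301). With the muscle score as a covariate PSMC6, PSMD3 and PSMD11 lost their calls (adjusted p 0.0655, 0.0614 and 0.0825). The arrays of 168 h were also labelled on 2 dates. With 2 exposed and 2 control arrays on one date and 1 of each on the other, the changes were −0.56 and −0.11 for PSMC3, −0.58 and −0.02 for PSMD3, −0.37 and −0.30 for PSMC6 and −0.455 and −0.20 for PSMD11. At 24 h PSMD3 had changed by 0.75, and PSMC6 and PSMD11 had been higher there too. None of the 14 constitutive core genes was called. At an unadjusted p under 0.05 there was 1 of the 14, where 7166 of the 23999 probe sets passed. PSMD10, a chaperone of cap assembly also known as gankyrin, was higher by 0.34 ± 0.12 (adjusted p 0.0439), a call lost under 7 other settings.

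Conjugating enzymes made up the rest at 168 h. UBE2W was higher by 0.60 ± 0.14, with 8.01, 7.87 and 7.78 against 7.19, 7.47 and 7.2, and UBE2T by 0.55 ± 0.12. UBE2R2 was again lower, with 8.7, 8.82 and 8.48 against 9.09, 9.23 and 9.11, a change of −0.48 ± 0.11 (adjusted p 0.00133). UBE2E3 changed by −0.45 ± 0.11 and UBE2B by −0.52 ± 0.14, with 11.17, 11.09 and 11.11 against 11.49, 11.65 and 11.78. In all 3 lower genes the groups did not overlap. Over all members the exposed arrays lay above the controls in 14 and below in 13 (17.1% and 15.3% of probe sets). Muscle genes averaged 7.01 to 7.05 in exposed and 7.15 to 13.31 in control skin at this time, 6 of 8 keratinocyte genes were lower and 7 of 11 leukocyte genes higher. With the muscle score as a covariate PSMC3 alone of the 4 lower cap genes remained called (adjusted p 0.0437), as did the 3 lower UBE2 genes, UBE2T and UBE2W, and the part of the other cell types was not tested. The count was 5 without control replicate 3, 6 without control replicate 2 and 6 without exposed replicate 2, and 16 with the replicate block, 8 higher and 8 lower.

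At 336 h 5 genes were higher and none lower (2.38% and 1.66% of probe sets, 4.04% in all): PSMA1, PSMA4, PSMA5, UBE2N and UBE2T. PSMA5 read 11.09, 11.25 and 10.74 against 10.66, 10.42 and 10.5, a change of 0.50 ± 0.13 (adjusted p 0.015). These calls did not survive the loss of 1 array, since none was left without control replicate 2, control replicate 3, exposed replicate 1 or exposed replicate 2. Arrays of this time were labelled on 2 dates with unequal numbers of each group, and with the date as a block no member was called. With the replicate number as a block 3 were. In 16 members all exposed arrays lay above the controls and in 2 below (14.2% and 11.6% of probe sets).

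At 514 h, when the labels give all 3 exposed sites as re-epithelialized, 13 genes were higher and none lower (3.7% and 2.13% of probe sets, 5.83% in all). Of these 10 had been higher at 24 h, and the other 3 were PSMB5, UBE2QL1 and UBE2T. UBE2N rose by 0.70 ± 0.12 (adjusted p 0.000315), with 11.07, 11.15 and 10.89 against 10.18, 10.46 and 10.37. UBE2QL1, a little studied UBE2Q-like gene, read 8.25, 8.48 and 8.52 against 7.65, 7.92 and 7.9, a change of 0.595 ± 0.15 (adjusted p 0.0113). PSMB5, which had missed the threshold at 24 h, was called with 12.16, 12.19 and 12.1 against 11.82, 11.87 and 11.81 (0.32 ± 0.09, adjusted p 0.0285). The shift was wider than the calls: in 44 of 63 genes every exposed array lay above every control and in 3 below, where 15.3% and 14.1% of all probe sets did so.

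The mean of the 40 proteasome genes at 514 h was 10.87, 10.94 and 10.87 in exposed skin and 10.58, 10.74 and 10.65 in control skin, with 10.7 in the sham animal. The gap was smaller than at 24 h but the groups did not overlap. None of 11 leukocyte genes was called at this time and 2 of 8 keratinocyte genes were higher. Muscle genes averaged 6.99 to 10.22 in exposed and 7.15 to 12.84 in control skin, and 11 of the 13 genes remained called with that score as a covariate. The count was 2 without control replicate 1, 2 without exposed replicate 2, 4 without exposed replicate 1, 7 without control replicate 3 and 8 without control replicate 2.

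**Figure D4:**
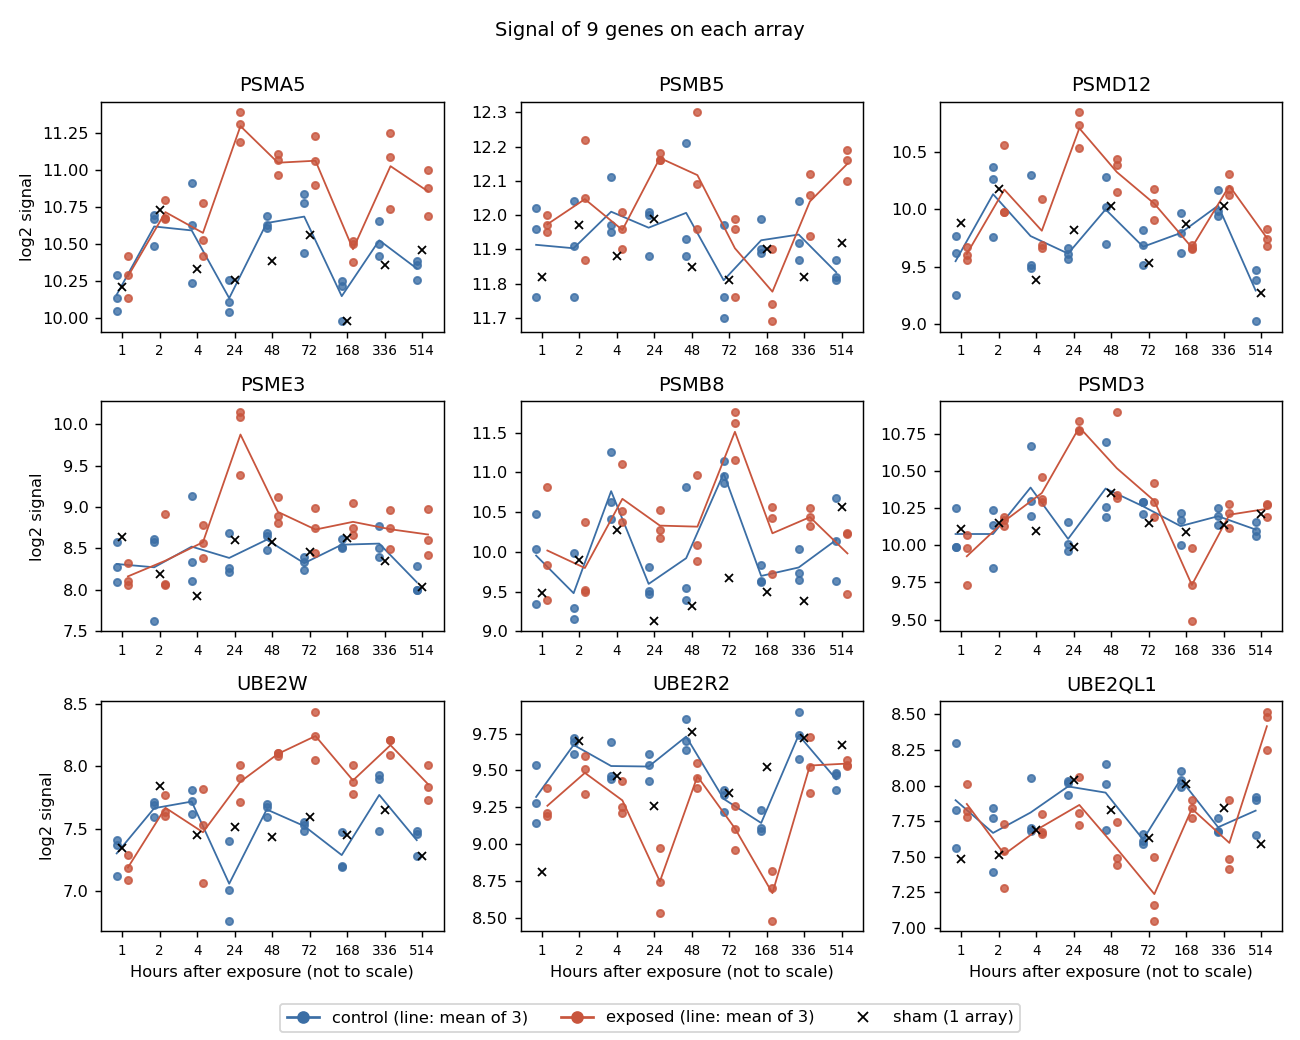
Log2 signal (y axis) of 9 genes on each array at 9 times after exposure; circles are single arrays (blue control, red exposed), lines join the means of 3 and crosses are the sham arrays. PSMA5, PSMD12 and PSME3 stand apart from the controls at 24 h, PSMB8 varies among controls over time, PSMD3 is high at 24 h and low at 168 h, and UBE2QL1 changes side between 72 and 514 h.

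UBE2T and UBE2W were each called higher at 5 of the 9 times, more often than any other member. The UBE2W call at 48 h was lost under 5 other settings (adjusted p 0.0605 to 0.123). With the muscle score as a covariate UBE2W was not called at 514 h (0.42, adjusted p 0.0688). A dimmer UBE2W probe set (mean signal 4.995) was not called at 168 or 514 h (0.22 and 0.31, adjusted p 0.291 and 0.204). UBE2T, the conjugating enzyme of the Fanconi anemia pathway that marks FANCD2 at DNA crosslinks, differed from the proteasome genes in its timing. At 24 h it read 7.98, 7.81 and 7.93 against 8.05, 7.81 and 7.76, with no call (0.03 ± 0.12, adjusted p 0.897). From 48 h on it was higher at every time, by 0.36, 0.39, 0.55, 0.49 and 0.44, with non-overlapping groups at each. At 168 h its signals were 8.63, 8.36 and 8.85 in exposed and 8.13, 8.03 and 8.05 in control skin (adjusted p 0.000885). At 514 h the sham array read 8.65, within the exposed range of 8.63 to 8.85. The UBE2T call at 336 h was lost under 6 other settings (adjusted p 0.0545 to 0.102). A second UBE2T probe set of nearly equal mean signal (8.213 against 8.267) was not called at 168 or 514 h (0.18 and 0.19, adjusted p 0.262 and 0.334). Most members peaked earlier, since 49 of 63 genes and 37 of 40 proteasome genes had their highest change at 24 h. That was also the time with the most calls among all probe sets (27.1% in either direction). There were 12 members without a call at any of the 9 times. Neither count was made for all probe sets, so whether they are particular to the members was not tested.

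In the window of 24 to 72 h the calls were 43 higher and 4 lower genes (18.2% and 16.9% of probe sets, 35.1% in all). Of the 5192 genes with 1 symbol at least as bright as the dimmest member, 34.6% were higher and 16.2% lower. All 14 constitutive core genes were among the 43, led by PSMB3 (0.67 ± 0.09) and PSMA5 (0.65 ± 0.07), as were 13 of 17 cap genes and PSME3 (0.75 ± 0.135). The lower genes were UBE2R2 (−0.42 ± 0.06), UBE2QL1 (−0.30 ± 0.09), UBE2E3 (−0.23 ± 0.07) and UBE2E2 (−0.20 ± 0.08, adjusted p 0.0478, lost under 17 other settings). The window of 168 to 514 h held 21 higher and 4 lower genes (12% and 9.88% of probe sets, 21.9% in all). For those 5192 genes the shares were 20.4% and 12.1%. Among the members PSME2 was first by size (0.495 ± 0.16, adjusted p 0.0229), followed by UBE2T (0.49 ± 0.07) and UBE2W (0.48 ± 0.08). UBE2B (−0.29 ± 0.08), PSMG3 (−0.23 ± 0.08), UBE2E3 (−0.22 ± 0.07) and UBE2R2 (−0.19 ± 0.06) were lower. Several of these late calls were fragile. PSME2 and PSMG3 each lost theirs under 5 other settings (adjusted p 0.0517 to 0.148 and 0.0504 to 0.901), UBE2B under 2 (0.0605 and 0.441) and UBE2E3 under 1 (0.11). Against the sham arrays PSMG3 was at −0.03 and UBE2B at −0.16.

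The differences between windows were tested directly. From 1 to 4 h to 24 to 72 h the change increased in 30 genes and decreased in 1, UBE2R2 (10.1% and 6.43% of probe sets). UBE2W (0.78 ± 0.11, adjusted p 2.86e-06), PSME3 (0.75 ± 0.19) and UBE2K (0.59 ± 0.11) increased most. From 24 to 72 h to 168 to 514 h the change decreased in 15 genes, 13 of them proteasome genes, and increased in 2 (4% and 4.45% of probe sets, 8.45% in all). PSMB3 (−0.43 ± 0.13), PSMC1 (−0.43 ± 0.08) and PSMD3 (−0.39 ± 0.11) decreased most, while UBE2QL1 (0.40 ± 0.12) and UBE2E2 (0.38 ± 0.115) increased. The total of 17 fell to between 9 and 11 when any 1 of 9 arrays was left out. These were control replicate 3 at 24, 168 and 514 h, control replicate 2 at 72 h and control replicate 1 at 336 h. The others were exposed replicate 3 at 24, 48 and 336 h and exposed replicate 1 at 72 h.

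**Figure D5:**
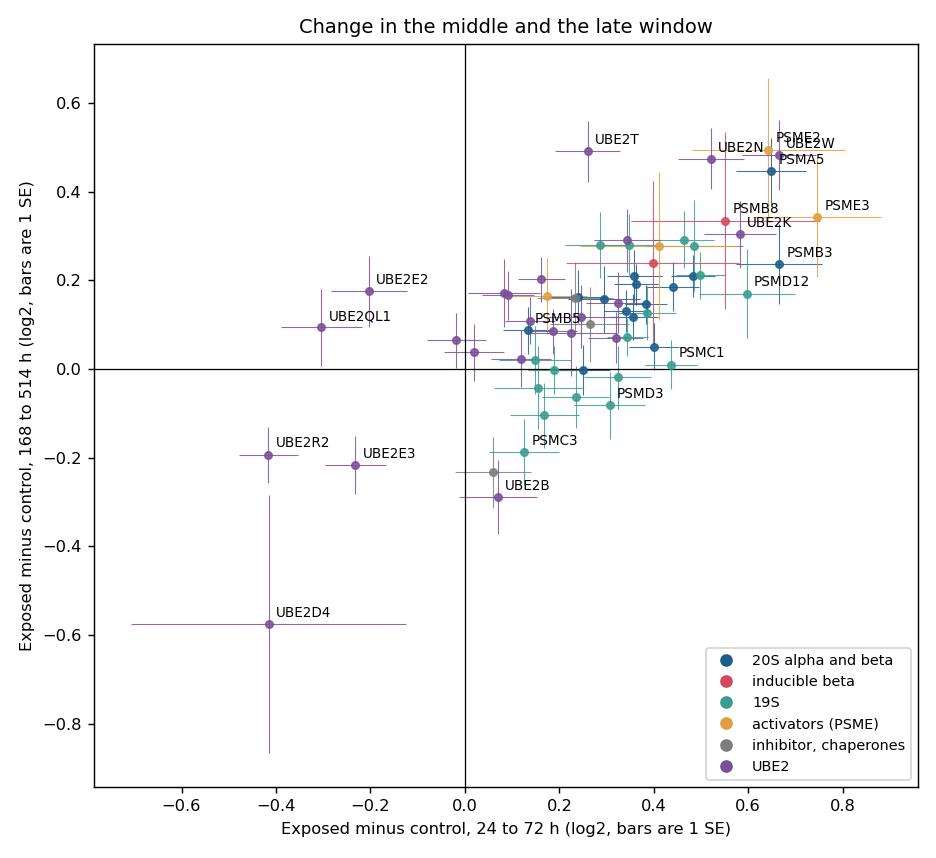
Exposed minus control (log2) averaged over 24 to 72 h (x axis) and over 168 to 514 h (y axis) for each of the 63 genes, with bars of 1 SE and colours by role; both windows hold 9 exposed and 9 control arrays. The proteasome genes all lie right of 0 while their late values spread from −0.23 (PSMG3) to 0.495 (PSME2).

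Sham skin did not differ from control skin by the test: 0 of 63 members were called by limma over the 9 sham and 27 control arrays, where 0% of probe sets were higher and 0.0208% lower. At an unadjusted p under 0.05 there were 6 of the 63 members, and 2168 of the 23999 probe sets. The interferon-inducible members were among those below the controls, PSMB10 by −0.44 ± 0.15 and PSMB8 by −0.35 ± 0.16 (adjusted p 0.443 and 0.528). With sham arrays of the same times in place of the controls (3 sham against 9 exposed arrays in a window, the single sham array of a time being assumed to vary like the other groups), PSMB8 rose by 1.35 at 24 to 72 h, PSMB10 by 1.18 and PSME1 by 0.95, all called (adjusted p 0.000326, 0.000505 and 0.00191). The core genes moved less between these settings, for example PSMA5 from 0.65 to 0.73. Other genes lost their calls at 24 to 72 h when the sham arrays were the controls. PSMC6 (0.13), PSMG1 (0.19), UBE2V1 (0.15) and UBE2V2 (0.15) were no longer called higher. UBE2E2 (−0.205), UBE2E3 (−0.18) and UBE2QL1 (−0.28) were no longer called lower.

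Other genes of the pathway are counted here at 24 to 72 h, when 18.2% of all probe sets were higher and 16.9% lower. Of the 6765 genes with 1 symbol, from which these lists were drawn, 2084 were higher and 967 lower. Of 8 measured genes for ubiquitin and its relatives 5 were higher and none lower, led by the interferon-induced ISG15 (1.38 ± 0.425) and UFM1, a modifier of endoplasmic reticulum proteins (0.705 ± 0.08). UBB, which encodes ubiquitin itself, was higher by 0.11 ± 0.035 (adjusted p 0.0138). Among 4 genes for E1 enzymes SAE1 was higher and UBA3, the NEDD8-activating subunit, lower. Of 7 genes for proteasome assembly and substrate delivery 5 were higher, among them VCP, the unfoldase that extracts ubiquitinated proteins (0.255 ± 0.05), and SEM1, a small 19S subunit (0.33 ± 0.06).

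Of 17 deubiquitinase genes 5 were higher and 2 lower, both near the shares of all genes with 1 symbol. OTUB1, which also binds and inhibits UBE2N, rose by 0.79 ± 0.08 (adjusted p 5.53e-10), UCHL1 rose by 0.97 ± 0.17 and USP7 fell by 0.395 on the log2 scale (adjusted p 5.39e-07). None of 13 E3 ligase genes was higher and 3 were lower, led by FBXO32 (−0.715 ± 0.24), a ligase of skeletal muscle. Of all 6765 genes with 1 symbol 2084 were higher and 967 lower, so only the lower share was near the background. Of 6 genes that load peptides on MHC class I 4 were higher, with PDIA3 at 0.58 ± 0.07, and of 17 interferon response genes 10 were higher, with IRF8 at 1.24 ± 0.15. At 514 h these last 2 lists held 1 and 0 higher genes.

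Several probe sets were present for 15 members. In 5 of them another probe set had a change of opposite sign at 24 to 72 h, and in 1, UBE2L3, it was called in the opposite direction. The chosen UBE2L3 probe set rose by 0.19 (adjusted p 0.00373) and the dimmer one changed by −0.21 (adjusted p 0.00789), so its direction is uncertain. For UBE2W, UBE2T, UBE2A and PSMD1 both probe sets were called higher at 24 to 72 h. UBE2D2, UBE2V1 and UBE2E3 were called on the brightest of 3 probe sets alone. The others were near 0.00 for UBE2D2 and not called for UBE2V1. For UBE2E3 they were at −0.12 and −0.19 (adjusted p 0.347 and 0.142). PSMF1 was called on the brighter of 2, the other being at 0.05 (adjusted p 0.602). Close relatives such as UBE2D2 and UBE2D3 or UBE2E2 and UBE2E3 are similar in sequence, and cross-hybridization between them was not tested.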

How the data were processed

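The authors deposited 1 table of log2 expression values for 24123 probe sets on 63 arrays; RMA and Partek are named, without versions, in the submitters' processing notes. RMA summarises the probes of a set after background correction and quantile normalization. Signals of different genes cannot be compared as amounts of RNA. Array medians ran from 7.746 to 7.862. After 124 control probe sets were left out, limma 3.58.1 (R 4.3.3) was fitted to 23999 probe sets with a mean for each of 27 groups (residual degrees of freedom 36, prior 3.24). Exposed and control skin were compared at each of the 9 times, over 3 windows and between windows, and sham with control skin. The labels give same-numbered exposed and control arrays of a time the same sacrifice day. Their deviations from the group means correlated above 0.1 in 21 of 27 pairs (mean r 0.27) and in all 3 pairs at 5 of the 9 times, so counts with the replicate number as a block stand beside those it moved by over 1.5 times. P-values were two-sided and Benjamini-Hochberg adjusted over all probe sets.

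Gene names came from a table of the platform's annotation, in which 10069 probe sets had 1 symbol, 198 had several and 13732 were not listed. Of the 63 members 62 matched RefSeq's Sscrofa11.1 gene table by gene ID. Genes were named by rule: all members of roles with up to 4 measured members, in other roles up to 4 with the largest same-sign changes called at 24 to 72 h, the 3 largest called changes in each direction at each time, window and difference of windows and in each pathway list, and members called against most of their role. Outside it, chosen after their values were seen, are PSMA7, PSMB5, PSMB6, PSMB7, PSMC3, PSMD1, PSMD11, PSMD4, UBB, UBE2D3, UBE2D4, UBE2J2 and UBE2L3. The members, roles, pathway lists and marker lists were chosen with earlier results of these data known. The fit was tested on simulated data. Alternatives were a replicate block, a further quantile normalization, a filter on dim probe sets, the mean of a gene's probe sets, the transcription date as a block, a muscle covariate, single-time fits, sham arrays as controls and leaving out each array.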

Additional observations from a re-analysis of the deposited data

Results flagged for a closer look

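The change at 24 to 72 h differed from that at 1 to 4 h, by limma's test of the difference itself, in 31 members. Among them were UBE2W (0.784, adjusted p 2.86e-06), PSME3 (0.751, adjusted p 0.00453), UBE2K (0.593, adjusted p 1e-04) and UBE2R2 (−0.254, adjusted p 0.0434). The UBE2R2 call was lost under 21 other settings, with adjusted p from 0.0509 to 0.0892.

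The change at 168 to 514 h differed from that at 24 to 72 h in 17 members. PSMB3 (−0.429, adjusted p 0.0303), PSMC1 (−0.427, adjusted p 0.000337) and PSMD3 (−0.389, adjusted p 0.0165) decreased. UBE2E2 (0.377, adjusted p 0.0317) and UBE2QL1 (0.397, adjusted p 0.0323) increased. Other settings lost the call for PSMB3 in 11 cases, for UBE2QL1 in 6 and for UBE2E2 in 5.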

How the results depend on the processing

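No result changed direction with its call. Leaving out each array in turn gave 40 to 44 called members at 24 h (45 with all arrays), 42 to 48 at 24 to 72 h (47), 20 to 27 at 168 to 514 h (25), 27 to 35 for the difference of 24 to 72 h and 1 to 4 h (31) and 9 to 19 for that of 168 to 514 h and 24 to 72 h (17). Counts at the other times were less stable: 1 to 12 at 48 h (12), 3 to 10 at 72 h (8), 5 to 9 at 168 h (10), 0 to 7 at 336 h (5), 2 to 11 at 514 h (13), 0 to 2 at 4 h (0), 1 to 3 at 1 to 4 h (1), and 0 at 1 h, 2 h and for sham minus control. The replicate block raised the called members of 72 h to 13 and those of 168 h to 16, and lowered those of 336 h to 3. It added calls for PSMB10 and PSME1 at 24 to 72 h, changed no other call of a named gene and moved no other count by over 1.5 times. A further quantile normalization gave 1 at 4 h and 10 for the late difference of windows, and the transcription date as a block gave 0 at 336 h and 2 at 1 to 4 h. The muscle covariate gave 14 at 72 h. Fits to the 6 arrays of a time, which have fewer samples, gave 2 at 48 h, 1 at 72 h and 1 at 336 h. With the sham arrays of the same times as controls, 3 in each window, there were 0 at 1 to 4 h and 11 at 168 to 514 h. Apart from the fewer samples, the cause of these shifts was not tested.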

Other observations

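The inducible subunits were set against the constitutive ones they replace, and PSME2 against PSME3, after the values were seen. In an exact two-sided permutation test within times (8000 arrangements, 9 tests) none of the differences passed. The change of PSMB8 exceeded that of PSMB5 by 0.42 at 24 to 72 h (p 0.0512, adjusted p 0.461), and that of PSMB10 exceeded that of PSMB7 by 0.15 (p 0.394, adjusted p 0.709).

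UBE2D4, a relative of UBE2D2, had the largest SE of all members. At 4 h its controls read 10.13, 7.48 and 9.31 and its exposed arrays 9.37, 8.61 and 9.49. Its change at 24 h was −0.21 ± 0.50, and it was called at no time.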
